A study of Schizosaccharomyces pombe with 4 samples.

Results

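The outer 100 kb of each end of chromosome 1 of fission yeast (Schizosaccharomyces pombe) were examined for bromodeoxyuridine (BrdU) incorporation. They were measured by 650 of the 41551 probes of a tiling array, 324 at the left end and 326 at the right end. A probe belonged to them if its name placed it on chromosome 1 within 100 kb of the first position or of the last probe of the array design. Probes stand 300 bp apart. The arrays labelled fft3Δ came from cells with the genotype cdc25-22 fft3_delta, and the wild-type arrays from cdc25-22 cells. fft3 encodes a chromatin remodeller of the SNF2 family, and cdc25-22 is an allele of the mitotic phosphatase Cdc25 that fails at high temperature. Both kinds of cell carried Pnmt1-TK, a viral thymidine kinase, and Padh1-hENT, a human nucleoside transporter, which let them take up BrdU. Both were blocked at 37 °C, released at 26 °C with 10 mM hydroxyurea and 200 µM BrdU, and collected at 120 min. Each genotype had 2 arrays, numbered by series 1 or 2. Whether the 2 series came from separate cultures is not stated in the labels, so p-values measure only the spread between these arrays, which may be technical.

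Hydroxyurea starves forks of deoxynucleotides, so BrdU mainly marks DNA next to origins that fire early. The DNA next to fission yeast telomeres belongs to the late-replicating part of the genome. The telomere protein Taz1 and its partner Rif1 delay origins there, and heterochromatin bound by Swi6 covers the outermost part. Fft3 is known as a remodeller that keeps nucleosome turnover low in silent chromatin. A low BrdU signal over input in this assay is the usual mark of a late domain.

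The value used was the log2 ratio of the Cy5 signal (BrdU DNA) over the Cy3 signal (input DNA), so 0 is the median probe of an array. All 650 probes were well above background in both channels on all 4 arrays. At 41251 chromosome probes, the SD of the Cy3 signal was 1.04, 0.957, 1.034 and 0.502 on the log2 scale for labelled fft3Δ arrays 1 and 2 and wild-type arrays 1 and 2. The SD of the Cy5 signal was 1.313, 1.265, 1.332 and 0.825 in the same order. Both channels of wild-type array 2 thus stood apart, with a narrower range. On that array the median Cy3 signal was 217 times the median background, and the median Cy5 signal 1170 times. The other arrays had 17.1 to 55.4 times in Cy3 and 46.4 to 67.0 times in Cy5. Wild-type array 2 also had 617 probes flagged as non-uniform, against 7 and 4 on the arrays labelled fft3Δ and 4 on wild-type array 1. As a check of the genotype labels, the input was averaged over every run of 12 adjacent probes, the number that fits in the length of fft3 in the reference. No run had an input at least 1 lower on the log2 scale than wild type in both series, and the lowest value reached in both was -0.28. Within single series the lowest run was -0.45 in series 1 and -1.38 in series 2, the latter read against wild-type array 2. A deletion shared by both series was therefore not seen in the input, and directions below are those of the label.

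The outermost DNA of both ends is repeated elsewhere in the genome. In the reference assembly ASM294v3, 49489 of the outer 100000 bases of the left end had a match of at least 300 bp and 95% identity elsewhere, and 21006 of those of the right end. Nearly all of this repeated DNA lay in the outermost 50 kb on the left and the outermost 20 kb on the right. Most of it matched the ends of chromosome 2, with 37192 bases of the left end found at the right end of chromosome 2 and 28529 at its left end. The left end shared 17496 bases with the right end of chromosome 1. The array showed much the same layout. Probe names ending in f, Rf, m or Rm, whose meaning is not given in the sources used here, made up 44.8% of the left-end probes and 21.5% of the right-end probes, against 3.66% of all chromosome probes. They made up 100% of the bins from 30 to 50 kb on the left and of the outermost 10 kb on the right. In the outermost 10 kb on the left they made up 47.1%, although 100% of the reference bases there were repeated. Probes with these endings were 0% to 27.3% of the bins beyond 50 kb on the left and 0% to 12.1% of those beyond 20 kb on the right. A probe in repeated DNA reads all copies together, so its value is that of several chromosome ends.

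The array design names no genome build, its last probe on chromosome 1 lies 4533 bp short of the end of the reference, and no gene was placed on it. The outer 100 kb of the reference hold 32 protein-coding genes on the left and 33 on the right. From the left telomere inward, the named genes open with tlh1, a gene of the telomere-linked RecQ-type helicase family. They go on with cell-surface, transport and metabolic genes such as pfl6 (a flocculin-like adhesin), fex1 (a fluoride exporter), dak2 (a dihydroxyacetone kinase) and shu1 (haem uptake). On the right they include yhb1 (a flavohaemoprotein that detoxifies nitric oxide), mel1 (an alpha-galactosidase), put4 (a proline permease) and cat1 (a cationic amino acid transporter).

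Both ends were depleted of BrdU DNA in every array. At the left end, the mean log2 ratio over its 324 probes was -0.77 and -1.07 on labelled fft3Δ arrays 1 and 2, and -1.16 and -1.18 on wild-type arrays 1 and 2. The right end had -0.65 and -0.84 on labelled fft3Δ arrays 1 and 2, and -0.99 and -1.66 on wild-type arrays 1 and 2. Both arrays labelled fft3Δ were above both wild-type arrays at each end. The chromosome 1 interior, by contrast, had -0.15 on both arrays labelled fft3Δ and -0.15 and -0.12 on the wild-type arrays. Ratios under -1 were found at 22.5% and 55.9% of left-end probes on the arrays labelled fft3Δ, and at 62.0% and 61.0% on the wild-type arrays. The right end had shares of 24.8% and 39.0% on the arrays labelled fft3Δ, and 51.2% and 77.8% on the wild-type arrays. Across all chromosome probes they were 8.78% and 9.10% on the arrays labelled fft3Δ, and 10.6% and 8.76% on the wild-type arrays. Probes above the array median were rare at the left end, with 8 and 0 on the arrays labelled fft3Δ and 0 and 10 on the wild-type arrays. The right end had 40 and 22 on the arrays labelled fft3Δ, and 28 and 16 on the wild-type arrays.

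**Figure D1:**
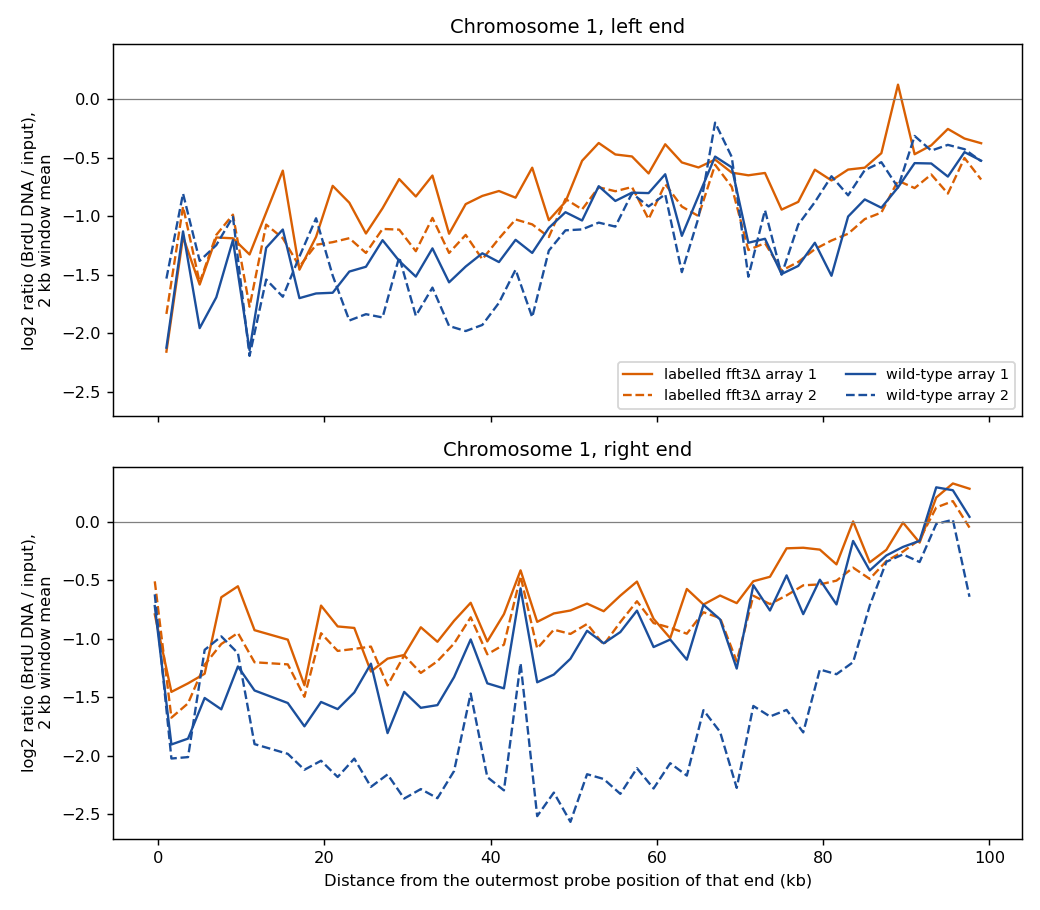
Log2 ratio of BrdU DNA over input (vertical axis) in 2 kb windows against the distance from the end in kb (horizontal axis), for the left end (top) and the right end (bottom) of chromosome 1. Each line is an array. At the right end, wild-type array 2 (dashed blue) lies below the other 3 arrays from about 10 to 85 kb; at the left end the arrays cross.

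The depletion eased with distance from the end, and the distance at which it did differed between arrays. On the right, a running mean over 10 kb first reached -1 at 7.1 and 38.6 kb on labelled fft3Δ arrays 1 and 2, and at 52.4 and 83.6 kb on wild-type arrays 1 and 2. The left end did so at 16.7 and 47.6 kb on the arrays labelled fft3Δ, and at 49.4 and 55.1 kb on the wild-type arrays. This first crossing came earlier on both arrays labelled fft3Δ at each end, though on the left the second of them and the first wild-type array were only a few probes apart. The left profile dipped again farther in, and the distance beyond which the running mean stayed above -1 was 22.7 and 85.7 kb on the arrays labelled fft3Δ, and 84.8 and 78.8 kb on the wild-type arrays, so the groups overlapped. On the right that distance was 32.0 and 38.3 kb on the arrays labelled fft3Δ, and 52.1 and 83.3 kb on the wild-type arrays. The level of -0.5 was first reached on the left at 56.0 and 100.1 kb on the arrays labelled fft3Δ, and at 98.3 and 91.1 kb on the wild-type arrays, again with overlap. With a running mean over 5 kb the right end first reached -1 at 6.7 and 24.4 kb on the arrays labelled fft3Δ and at 50.5 and 7.3 kb on the wild-type arrays, so the groups overlapped. There the ratio of wild-type array 2 rose over -1 for a short stretch near the telomere. The array median was first reached at nearly the same place in all arrays on the left, at 107.9 kb on both arrays labelled fft3Δ and at 107.6 and 107.3 kb on the wild-type arrays. On the right it was first reached at 91.4 and 95.3 kb on the arrays labelled fft3Δ, and at 92.3 and 102.5 kb on the wild-type arrays. The running mean over 10 kb fell below it again farther in. On the left this went on to 149.9 kb in every array, where the scan ended. On the right the running mean stayed above the median beyond 120.8 and 120.5 kb on the arrays labelled fft3Δ, and 118.7 and 122.9 kb on the wild-type arrays.

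The comparison of the genotypes asked where incorporation differs in cells labelled as lacking Fft3. The mean ratio of the right end was -0.74 ± 0.13 with the fft3Δ label, against -1.33 ± 0.47 for wild type (SD over 2 arrays per genotype). Their difference of 0.58 was 0.82 within series 2 and 0.34 within series 1, whose 2 arrays share a slide. The arrays of series 2 lay on different slides and were extracted with different software versions. The mean ratio of the left end was -0.92 ± 0.21 with the fft3Δ label, against -1.17 ± 0.013 for wild type (SD over 2 arrays per genotype). Their difference of 0.25 was 0.11 within series 2 and 0.39 within series 1. The wild-type SD of 0.013 is that of whole-end means, in which differences by position offset each other. Wild-type array 2 minus wild-type array 1 was 0.416 in the outermost 10 kb, -0.458 from 30 to 40 kb and 0.345 from 80 to 90 kb. The exact permutation test, two-sided, gave p = 0.33 at each end, which is as low as a design of 2 against 2 can go. Without wild-type array 2 the difference was 0.25 at the right end and 0.24 at the left end, so the larger value on the right rested on that array. Without labelled fft3Δ array 1 the left end differed by 0.099, without labelled fft3Δ array 2 by 0.40, and without wild-type array 1 the right end differed by 0.92.

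The right end minus the left end was 0.12 and 0.23 on the arrays labelled fft3Δ, and 0.17 and -0.48 on the wild-type arrays. The genotype difference was thus 0.33 larger on the right, which did not exceed the spread between arrays (exact permutation p = 0.67). It was -0.048 in series 1 and 0.71 in series 2, and 0.009 without wild-type array 2.

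By distance, a difference positive in both series reached over more bins at the right end than at the left. Both arrays labelled fft3Δ were above both wild-type arrays in 8 of 10 bins of 10 kb on the right and in 5 of 10 on the left, against 12.2% of all 1250 bins. The difference had a positive sign in both series in 10 of 10 bins on the right and 6 of 10 on the left, against 27.4% of all bins. Series 1 was positive in every bin of both ends, so this contrast came from series 2, which holds wild-type array 2. No bin of either end passed an adjusted p of 0.05 in limma, nor did any of the 1250 bins (0.0%). An unadjusted p under 0.05 was found, all higher, for 9 of the 20 bins, against 1.84% of all bins. With the series as a block, 12 of the 20 bins passed as higher, 4 on the left and 8 on the right, against 2.48% of all bins. The block leaves 1 residual degree of freedom, so these calls rest largely on the spread that limma shares across all bins. In series 2 it joins arrays from different slides. Without wild-type array 1, and with no block, 12 of the 20 bins passed as higher, against 4.4% of all bins, and 0 did without any one of the other arrays. That fit leaves wild type with 1 array, which is assumed to vary like the arrays labelled fft3Δ. After centring on the mode, with all 4 arrays and no block, 6 of the 20 bins passed as higher, against 0.56% of all bins. Whether a bin passed therefore changed with the block, the centring and wild-type array 1.

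**Figure D2:**
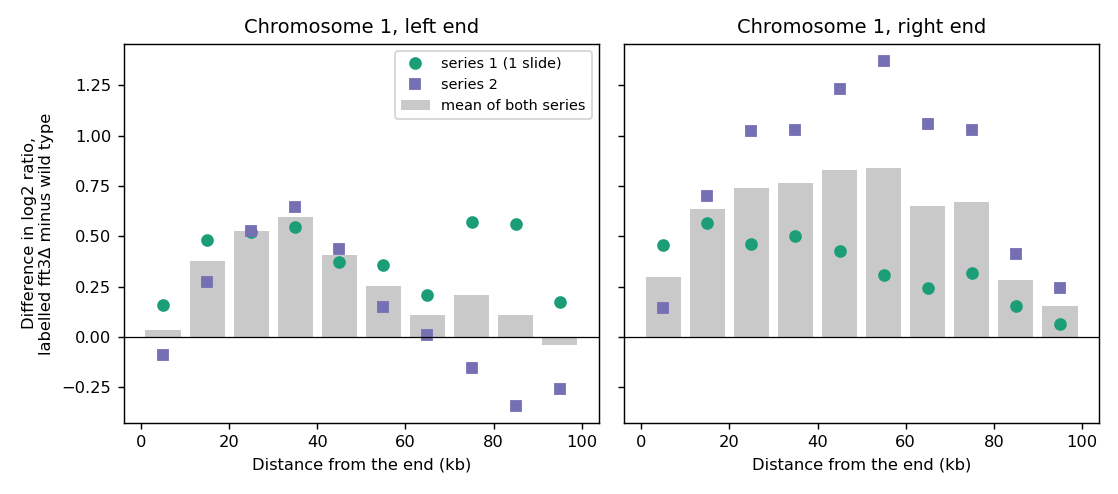
Difference in log2 ratio, labelled fft3Δ minus wild type, in 10 kb bins (vertical axis) against distance from the end in kb. Grey bars are the mean of both series, circles are series 1 and squares are series 2. All 10 bins on the right are above 0 in both series, and on the left series 2 falls below 0 in the outermost bin and beyond 70 kb.

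At the left end the bins with a positive difference in both series were those from 10 to 70 kb. In the outermost 10 kb the ratio was -1.45 and -1.29 on the arrays labelled fft3Δ, and -1.61 and -1.20 on the wild-type arrays, a difference of 0.034 with overlapping groups. The bin from 20 to 30 kb had -0.90 and -1.20 on the arrays labelled fft3Δ, and -1.43 and -1.72 on the wild-type arrays. That from 30 to 40 kb had -0.87 and -1.22 on the arrays labelled fft3Δ, and -1.41 and -1.87 on the wild-type arrays. These bins had the largest differences on the left, 0.53 and 0.59, nearly equal in both series (0.52 and 0.53, then 0.55 and 0.64). Both lie in the repeated part of the end. From 70 to 80 kb the ratio was -0.74 and -1.33 on the arrays labelled fft3Δ, and -1.31 and -1.18 on the wild-type arrays. From 80 to 90 kb it was -0.46 and -1.02 on the arrays labelled fft3Δ, and -1.02 and -0.67 on the wild-type arrays. In these bins labelled fft3Δ array 1 was the highest of the 4 arrays, and labelled fft3Δ array 2 nearly equalled wild-type array 1. The differences there were 0.57 and 0.56 in series 1, and -0.15 and -0.34 in series 2. From 90 to 100 kb the difference was -0.042.

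On the right the difference grew from the telomere to about 60 kb and then shrank. It was 0.30 in the outermost 10 kb, 0.63 from 10 to 20 kb, 0.74 from 20 to 30 kb and 0.84 from 50 to 60 kb, then 0.28 from 80 to 90 kb and 0.15 from 90 to 100 kb. Series 1 alone had another course. Its difference was highest from 10 to 20 kb, at 0.57, and was 0.31 from 50 to 60 kb and 0.065 from 90 to 100 kb. The maximum from 50 to 60 kb came from series 2, with a difference of 1.37. There the ratio was -0.66 and -0.87 on the arrays labelled fft3Δ, and -0.96 and -2.24 on the wild-type arrays. From 10 to 20 kb it was -0.98 and -1.26 on the arrays labelled fft3Δ, and -1.55 and -1.96 on the wild-type arrays, a difference present in both series.

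The outer 50 kb of both ends minus their inner 50 kb gave -0.55 and -0.42 on the arrays labelled fft3Δ, and -0.70 and -0.66 on the wild-type arrays. The step from inner to outer DNA was thus shallower in the arrays labelled fft3Δ, by 0.19 (0.15 in series 1 and 0.24 in series 2; exact permutation p = 0.33, the smallest possible). On the left alone the difference in this step was 0.25, with 0.035 in series 1. On the right alone it was 0.13, with 0.008 in series 2.

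At the scale of 2 kb, both arrays labelled fft3Δ were above both wild-type arrays in 22 of 50 windows on the left and 32 of 49 on the right, against 15.1% of all 6214 windows. The reverse held in 2 windows on the left and 0 on the right, against 19.6% of all windows. In limma, 0 of the 99 windows of the ends passed an adjusted p of 0.05, as did 0.0% of all windows. An unadjusted p under 0.05 was found, all higher, for 16 windows on the left and 30 on the right, against 3.67% of all windows. With the series as a block 12 windows on the left and 26 on the right passed as higher, against 1.66% of all windows. Without wild-type array 1, and with no block, 27 of the 99 windows passed as higher, against 0.644% of all windows. The median difference was 0.18 on the left and 0.60 on the right, against -0.02 over all windows.

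Among windows with the same sign in both series, those with the largest moderated t at the right end lay close together, starting 18.6 to 26.6 kb from the end. They were at 5554001 to 5556000, 5552001 to 5554000 and 5546001 to 5548000 of the array design (positions counted from 1), on either side of the edge of the repeated part. The first had a log2 ratio of -0.72 and -0.95 on the arrays labelled fft3Δ, and -1.54 and -2.04 on the wild-type arrays. Its difference of 0.96 was 0.82 in series 1 and 1.09 in series 2 (limma adjusted p = 0.883, and 0.0014 with the series as a block). Without wild-type array 2 it was 0.71. The window was chosen for its large moderated t. A difference above the spread within the groups, and a low p with the block, therefore follow in part from that choice. The other windows had differences of 0.89 and 0.70. The Cy5 signal alone differed by 0.57, 0.49 and 0.44 in the 3 windows, and the input by -0.42, -0.43 and -0.29.

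At the left end the windows with the largest moderated t were at 10001 to 12000, 22001 to 24000 and 44001 to 46000, spread over the repeated part. The first was the lowest of the 3. It had -1.33 and -1.77 on the arrays labelled fft3Δ, and -2.14 and -2.19 on the wild-type arrays. The differences of the 3 windows were 0.62, 0.65 and 0.76 (limma adjusted p = 0.883 each). The input carried much of them, as the Cy5 signal alone differed by 0.097, 0.18 and 0.30 and the input by -0.56, -0.50 and -0.49. The lowest moderated t with the same sign in both series were at 66001 to 68000, 68001 to 70000 and 1 to 2000. Their differences were -0.19, -0.15 and -0.17, none past the threshold (limma adjusted p = 0.886, 0.888 and 0.897). On the right no window with the same sign in both series was lower in the arrays labelled fft3Δ. Among the right-end windows with the same sign in both series, those with the smallest moderated t had differences of 0.027, 0.11 and 0.12 and started 86.6 to 94.6 kb from the end.

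Local maxima within the ends, the points of most BrdU within 5 kb on each side, were then read off the 4-array mean after smoothing with 500 bp on each side. The left end had 8 and the right end 9. The highest at the left end stood 66.9 kb from the end, at 66901, with -0.38 and -0.36 on the arrays labelled fft3Δ, and -0.34 and -0.008 on the wild-type arrays. It stayed below the array median in all 4 arrays. The next, 61.2 kb from the end, had -0.15 and -0.41 on the arrays labelled fft3Δ, and -0.33 and -0.53 on the wild-type arrays. The one 84.3 kb from the end had -0.49 and -0.79 on the arrays labelled fft3Δ, and -0.45 and -0.061 on the wild-type arrays. The first and the third of these were thus highest on wild-type array 2.

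The highest maximum of the right end, 95.4 kb from it at 5479201, was the only named one above the array median. Its ratio was 0.26 and 0.29 on the arrays labelled fft3Δ, and 0.39 and 0.37 on the wild-type arrays. The smoothed value at this point was lower in both arrays labelled fft3Δ, while the 2 kb window around it differed by 0.11. A second maximum 43.5 kb from the end stood out of the low stretch. It had -0.364 and -0.358 on the arrays labelled fft3Δ, and -0.36 and -0.63 on the wild-type arrays, nearly alike in 3 of the arrays. The third, 76.2 kb from the end, had -0.13 and -0.29 on the arrays labelled fft3Δ, and -0.13 and -1.32 on the wild-type arrays. Here wild-type array 2 was low while the other wild-type array equalled labelled fft3Δ array 1.

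Of the deepest points, those named on the right kept the groups apart, while those on the left did so only in part. The lowest minimum of the left end, 1.5 kb from it, had -2.40 and -1.95 on the arrays labelled fft3Δ, and -2.36 and -1.64 on the wild-type arrays, so the series differed more than the genotypes. That 10.8 kb from the left end had -1.13 and -1.92 on the arrays labelled fft3Δ, and -2.36 and -2.39 on the wild-type arrays. That 16.8 kb from it had -1.52 and -1.67 on the arrays labelled fft3Δ, and -1.96 and -1.43 on the wild-type arrays, with overlapping groups. On the right, the minima 2.7, 20.7 and 46.8 kb from the end averaged -1.56, -1.31 and -1.26 in the arrays labelled fft3Δ, and -2.29, -2.29 and -2.24 in wild type. In each of these 3 both arrays labelled fft3Δ were above both wild-type arrays. The windows that hold these extrema had limma adjusted p of 0.883 to 0.940.

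The wild-type arrays differed from each other at the right end more than at the left. Wild-type array 2 was more than 1 below wild-type array 1 on the log2 scale in 15 of 49 windows on the right and 0 of 50 on the left, against 0.338% of all windows. Of the 21 such windows, the other 6 were at the ends of chromosome 2 and 0 elsewhere. The 15 windows lay 24.6 to 84.6 kb from the end, and ran from -2.56 to -1.20 on wild-type array 2 and from -1.37 to -0.17 on wild-type array 1. The same windows ran from -1.28 to 0.00 on labelled fft3Δ array 1 and from -1.19 to -0.39 on labelled fft3Δ array 2. Wild-type array 2 was the lowest of the 4 arrays in 91.8% of the windows on the right, 52.0% of those on the left and 31.3% of all. Over the probes of the right end, as a description across probes that share fragments, labelled fft3Δ array 2 and wild-type array 1 had r = 0.93 (326 probes). The wild-type arrays had r = 0.73 (324 probes), and the arrays labelled fft3Δ r = 0.85 (326 probes). Over all chromosome probes the same pairs had r = 0.95 (41243 probes), 0.84 (40649 probes) and 0.89 (41240 probes). The closeness of labelled fft3Δ array 2 to wild-type array 1 was thus not particular to the right end.

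At the right end both channels contributed to the difference of the ratio. The Cy5 signal alone, over its array median, was -0.83 and -0.97 on the arrays labelled fft3Δ, and -1.09 and -1.44 on the wild-type arrays. Its difference was 0.37 (0.27 in series 1 and 0.47 in series 2). The input of the same probes was -0.27 and -0.20 on the arrays labelled fft3Δ, and -0.19 and 0.20 on the wild-type arrays, a difference of -0.25 (-0.084 in series 1 and -0.41 in series 2). The Cy5 signal over its array median was thus higher in both arrays labelled fft3Δ, and the input lower.

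At the left end the Cy5 signal was -0.49 and -0.75 on the arrays labelled fft3Δ, and -0.76 and -0.61 on the wild-type arrays, a difference of 0.063 that changed sign between series 1 (0.27) and series 2 (-0.14). The input was 0.18 and 0.25 on the arrays labelled fft3Δ, and 0.32 and 0.56 on the wild-type arrays, a difference of -0.22 (-0.13 and -0.31). Over the whole left end the ratio difference of series 2 therefore came with the input and not with the Cy5 signal. Its outer 50 kb differed in Cy5 by 0.23 (0.27 and 0.19), and its inner 50 kb by -0.097 (0.27 and -0.46). What part the narrower range of both channels on wild-type array 2 has in these differences was not tested.

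**Figure D3:**
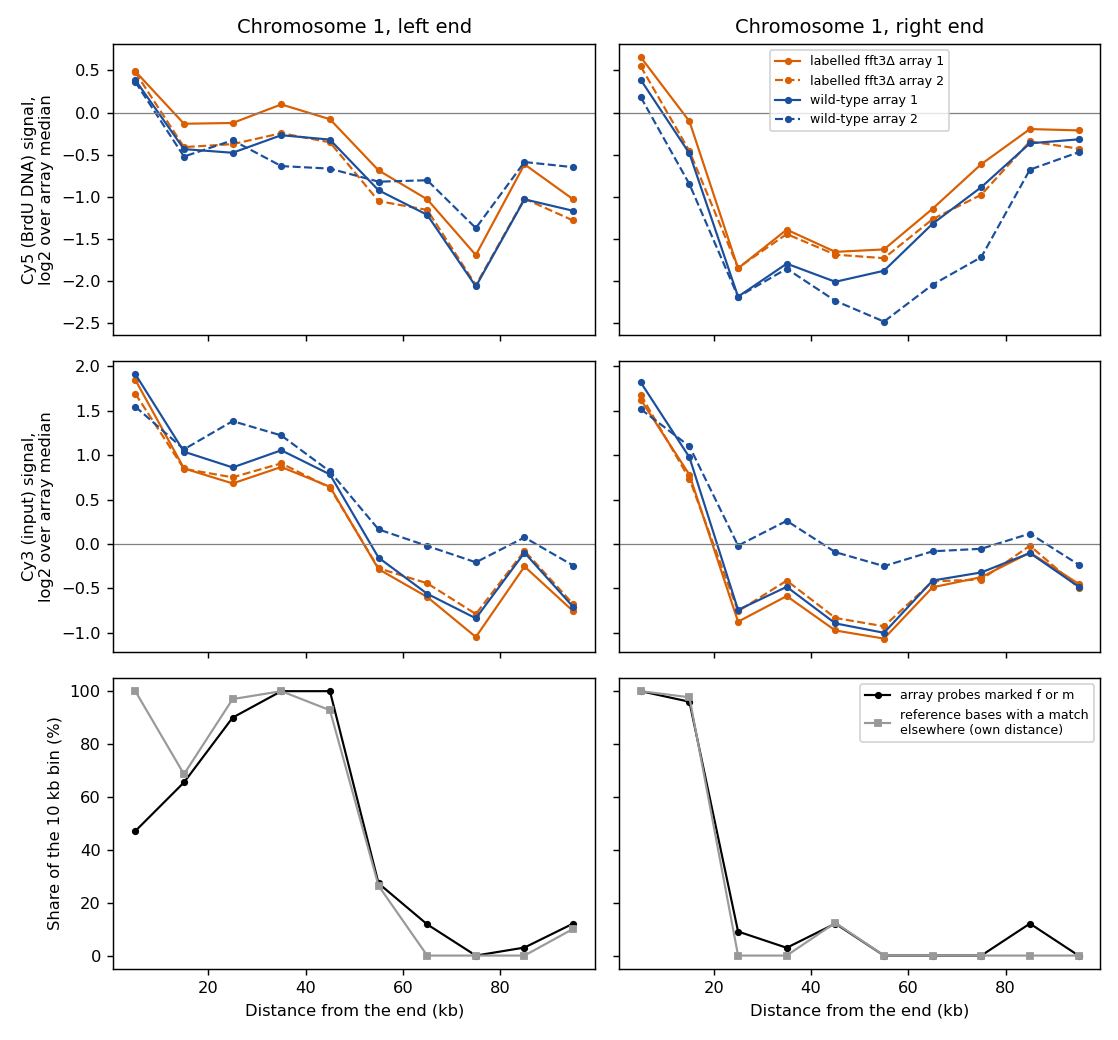
Cy5 signal (top) and Cy3 input signal (middle), each as log2 over the array median, and the share of array probes marked f or m with the share of repeated reference bases (bottom, %), in 10 kb bins against distance from the end in kb. Lines are arrays in the upper panels, and the reference is plotted by distance from its own end. Input is high where marked probes and repeats are frequent, in the outermost 50 kb on the left and 20 kb on the right.

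The input level followed the repeated DNA. In the outermost 10 kb of the left end it was 1.85 and 1.69 over the array median on the arrays labelled fft3Δ, and 1.91 and 1.55 on the wild-type arrays. From 50 to 60 kb it was -0.28 and -0.27 on the arrays labelled fft3Δ, and -0.15 and 0.16 on the wild-type arrays. On the right the same step came between the bins from 10 to 20 kb, at 0.78 and 0.73 on the arrays labelled fft3Δ and 0.98 and 1.10 on the wild-type arrays, and from 20 to 30 kb. In the bin from 20 to 30 kb the input was -0.87 and -0.76 on the arrays labelled fft3Δ, and -0.74 and -0.018 on the wild-type arrays.

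Marked probes and the others gave different pictures at the left end. Its 145 marked probes had a ratio of -0.89 and -1.11 on the arrays labelled fft3Δ, and -1.30 and -1.46 on the wild-type arrays, a difference of 0.38 (0.41 in series 1 and 0.35 in series 2). Its 179 other probes had -0.67 and -1.03 on the arrays labelled fft3Δ, and -1.05 and -0.95 on the wild-type arrays, a difference of 0.15 whose sign changed between series 1 (0.38) and series 2 (-0.085). The 70 marked probes of the right end differed by 0.37 (0.43 and 0.31), close to those of the left. In the reference 16144 bases of the right end match the left end, so marked probes of the 2 ends may read the same DNA. The 256 other probes there differed by 0.64 (0.32 and 0.96). Marked probes elsewhere on the chromosomes, 1293 in number, differed by 0.010, with opposite signs in series 1 (0.094) and series 2 (-0.075). That set did not leave out the ends of chromosome 2. These probe sets were chosen after seeing the data and were not tested. Only 47.1% of the probes in the outermost 10 kb of the left end were marked, though the reference is repeated there. The 2 sets at the left end therefore do not separate repeated from unique DNA. At both ends, signal from the marked probes and from the other chromosome ends that share their sequence cannot be told apart.

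Set beside the other chromosome ends, those of chromosome 1 had levels most like those of chromosome 2. These ends share sequence in the reference. There, 37192 bases of the left end of chromosome 1 and 19738 of its right end matched the right end of chromosome 2. Probes in such DNA read both, so the likeness and the contrast below do not compare wholly separate DNA. The left end of chromosome 2 had -0.63 and -0.88 on the arrays labelled fft3Δ, and -0.98 and -1.47 on the wild-type arrays. Its right end had -0.30 and -0.68 on the arrays labelled fft3Δ, and -0.54 and -1.10 on the wild-type arrays. The left end of chromosome 2 thus also had both arrays labelled fft3Δ above both wild-type arrays, while the groups overlapped at its right end. Their differences were 0.47 (0.35 in series 1 and 0.59 in series 2) and 0.33 (0.24 and 0.42). The chromosome 1 ends minus the chromosome 2 ends was -0.26 and -0.18 on the arrays labelled fft3Δ, and -0.33 and -0.15 on the wild-type arrays. Its genotype difference of 0.021 had the opposite sign in the 2 series (exact permutation p = 1.0). The ends of chromosome 3, which border ribosomal DNA, were not depleted, and ranged from 0.063 to 0.23 on the arrays labelled fft3Δ and from 0.015 to 0.18 on the wild-type arrays. The chromosome 1 ends minus those of chromosome 3 was -0.87 and -1.05 on the arrays labelled fft3Δ, and -1.16 and -1.56 on the wild-type arrays. That gap was smaller in the arrays labelled fft3Δ by 0.40 (0.29 in series 1 and 0.51 in series 2; exact permutation p = 0.33, the smallest possible). Against the interior of chromosome 1, the ends were closer in the arrays labelled fft3Δ by 0.43 (0.36 in series 1 and 0.51 in series 2; exact permutation p = 0.33).

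**Figure D4:**
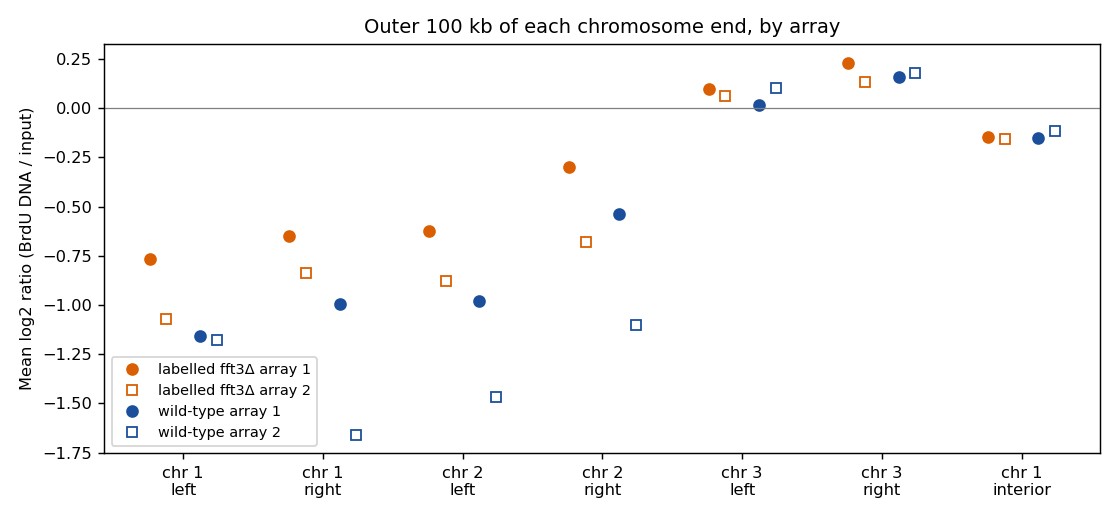
Mean log2 ratio of BrdU DNA over input (vertical axis) of the outer 100 kb of each chromosome end and of the chromosome 1 interior (horizontal axis). Points are arrays, orange for labelled fft3Δ and blue for wild type, filled for series 1 and open for series 2. At both ends of chromosome 1 and at the left end of chromosome 2 the orange points lie above the blue ones. At the right end of chromosome 1 wild-type array 2 is at -1.66.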

How the data were processed

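BrdU-labelled and input DNA were measured on 4 arrays with 2 colours, 2 per genotype, Cy5 for the immunoprecipitate and Cy3 for input on each, with no dye swap. The processed signals are intensity values in the scanner files deposited by the authors, background-subtracted and dye-normalized by Agilent Feature Extraction (12.0, and 11.5 for wild-type array 2) per the file headers. The deposited log10 ratio column was used to check direction. The deposited series matrix holds a ratio, equal to processed Cy5 over Cy3 to within 0.0132 on the log2 scale; its column medians were 0.994 and 1.02 for labelled fft3Δ arrays 1 and 2, and 1.03 and 1.07 for wild-type arrays 1 and 2. The deposited flag columns (unit other) mark non-uniform spots, which were left out (0 to 6 of the member probes of an end on any array).

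Each array's log2 ratios were shifted to a median of 0, without loess, and averaged over member probes, over 2 kb windows (at least 3 probes) and over 10 kb bins (at least 10 probes), the bins of chromosome 1 counted from its ends. Windows and bins of the 3 chromosomes were fitted with limma 3.58.1 (lmFit, eBayes; R 4.3.3), genotype as the only term, with Benjamini-Hochberg adjustment over all of them; the code was tested on simulated data. Values per array were compared by the exact permutation test. The median foreground signal replaced the planned mean one in normexp (offset 50). The number of arrays limits the precision. Alternatives were other background corrections, normalizations, centrings, probe sets, channels, a series block and leaving out each array. Repeats were found with BLAST+ 2.17.0. By the rule for named items the text gives the bins, the 3 highest maxima and 3 lowest minima and the 3 windows with the largest and smallest moderated t of each end among those with 1 sign in both series. The members, lists and rules were chosen with earlier results of these data known. No sequence is printed, because no genome of the array's build was used here.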

Additional observations from a re-analysis of the deposited data

How the results depend on the processing

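Both ends kept a positive difference under every alternative for the ratio. With all 4 arrays the left end ranged from 0.15 without marked probes (chosen after seeing the data) to 0.48 with normexp, and was 0.063 with Cy5 alone; the right end ranged from 0.47 with loess to 0.67 as a median over probes, and was 0.37 with Cy5 alone. Within series the report gives both. Leaving out an array gave 0.099 to 0.40 on the left, 0.25 to 0.92 on the right, 0.009 to 0.66 for right minus left, 0.13 to 0.26 for outer minus inner 50 kb, 0.14 to 0.37 for this step on the left and -0.013 to 0.28 on the right. Cy3 input alone, another quantity, gave -0.22 on the left, -0.25 on the right, -0.025 for right minus left, -0.021 for outer minus inner and -0.12 for that step on the right; it was -0.44 to 0.041 in the single bins and -0.56 to 0.16 in the named windows. Series 1 gave -0.048 for right minus left.

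With the series as a replicate block, 111 windows passed, 38 of them in the ends, and 35 bins, 12 of them in the ends; the end differences stayed 0.25 and 0.58, 0.33 for right minus left, and 0.19, 0.25 and 0.13 for the steps. The labels do not say that a series number marks a shared culture; deviations of same-numbered arrays correlated at 0.37 over windows. Centring on the mode passed 8 bins, 6 in the ends. Leaving out an array passed 0 to 42 windows (0 to 27 in the ends) and 0 to 116 bins (0 to 12 in the ends), the most without wild-type array 1; a genotype left with 1 array is assumed to vary like the other. Windows of 1 and 5 kb passed 0. The slide as a random block could not be fitted, since its correlation could not be estimated.

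Signs turned in the bins and windows named here; the cause was not tested. In the left bin from 0 to 10 kb, centring on the mode gave -0.052, probes with no letter suffix -0.030, scaling to a common SD (chosen after seeing the data) -0.041 and series 2 -0.090. Cy5 alone gave -0.084, -0.15 and -0.009 in those from 60 to 90 kb, series 2 -0.15 and -0.34 in the last 2 of these, and series 1 0.17 from 90 to 100 kb. That in window 1, with the local minimum at 1501, was 0.16 with normexp. The difference in window 5486001 was -0.033 with loess and -0.059 with mode centring, and window 5478001, with the local maximum at 5479201, -0.010 as a median over probes. The window of the local maximum at 84301 was 0.066 with no letter suffix and 0.27 in series 1, and that of the local minimum at 16801 was -0.007 with mode centring, -0.002 scaled, -0.030 as a median and -0.086 in series 2. Leaving out an array gave -0.17 to 0.24, -0.018 to 0.24, -0.086 to 0.50, -0.17 to 0.39 and -0.20 to 0.11 in the left bins from 0, 60, 70, 80 and 90 kb, and -0.010 to 0.32 in the right bin from 90 kb. In the windows it gave -0.46 to 0.13 at 1, -0.021 to 0.075 at 5486001, -0.018 to 0.23 at 5478001, -0.009 to 0.24 at 5484001, -0.29 to 0.15 at 84301 and -0.099 to 0.26 at 16801.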
